A study of Mus musculus with 26 samples.

Results

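Livers of wildtype mice kept on CDAHFD for 2 weeks were compared, gene by gene and across the whole transcriptome, with livers of wildtype mice on control chow. CDAHFD is a high-fat diet that lacks choline and supplies L-amino acids instead of protein. The comparison used 11 of the 26 liver RNA sequencing libraries in the series, the 6 labelled wildtype on CDAHFD and the 5 labelled wildtype on control chow. The other 15 libraries, from mice with a heterozygous (7) or homozygous (8) Mtarc1 knockout on CDAHFD, served here only to estimate the spread between samples. None of the 11 livers carried a knockout allele by their labels, and strain, age and sex are not given there. The labels number the samples without saying that each is 1 animal, so the p-values speak only of the spread from sample to sample, which may be technical. Control chow differs from CDAHFD in fat, in amino acids and in choline, so the parts of the diet cannot be told apart.

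Choline is needed to make phosphatidylcholine, the main phospholipid of cell membranes and of the surface of very low density lipoproteins. Without it the liver exports less triglyceride, and with a fat-rich feed it stores lipid, loses hepatocytes, takes in leukocytes and lays down scar. Hepatocytes make most of the liver's RNA, including the transcripts of albumin, apolipoproteins, clotting and complement factors, carrier proteins and enzymes of amino acid, steroid and drug metabolism. Macrophages, stellate cells, endothelium and bile duct cells make up the rest.

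Depth in the 11 libraries was 21.39 to 27.32 M (mega) estimated counts. Levels are given as counts per M (CPM) on scaled library sizes and are not corrected for transcript length, so they compare 1 gene between livers and not 1 gene with another. On unscaled library totals, chow libraries had 13540 ± 225 genes at 1 CPM or more (SD, n = 5) and CDAHFD libraries 14009 ± 263 (n = 6). The two-sided exact permutation p was 0.0173 (adjusted over 3 values, 0.026). On such totals the median log2 fold change of all genes tested was 0.22, against -0.01 on scaled sizes. The 100 most abundant genes of a library took 46.68% ± 1.53 of chow counts and 41.01% ± 1.23 of CDAHFD counts, with no overlap (exact permutation p = 0.00433, adjusted 0.013). The share from the mitochondrial genome, 13.13% ± 2.98 against 10.09% ± 2.33, overlapped (exact permutation p = 0.0779), and chow 3 at 8.64% lay far below the other chow livers (12.3% to 16.25%). Without chow 3 the difference was -4.16 percentage points (exact permutation p = 0.019) and without CDAHFD 1 it was -3.62 (0.0397). In CDAHFD 2 a gene ID without a symbol, ENSMUSG00000119584, reached 18510 CPM, against at most 4988 CPM in chow and a median of 3288 CPM in its own group, and 97.69% of the counts of that library carried a symbol.

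The libraries were liver by their markers. The summed level of 8 hepatocyte markers, albumin and transthyretin among them, ran from 94300 to 121000 CPM in chow and from 59500 to 95400 CPM in CDAHFD livers, and 4 of the 8 were called lower. Of 9 exocrine pancreas markers 6 stayed under 0.1 CPM in all 11 libraries. Of 5 mast cell and basophil markers 4 did, as did the adipocyte genes Plin1 and Lep and the neutrophil gene Ly6g. Xist, the transcript of the inactive X chromosome, stood at 724 to 1305 CPM, and the Y-linked Ddx3y, Eif2s3y and Kdm5d stayed at or under 1.2 CPM in all 11 (chosen here after their values were seen). Mtarc1 itself, listed as Marc1 in the annotation, was at 321, 313, 361, 268 and 264 CPM in chow and 193, 231 and 291 CPM on CDAHFD, a log2 fold change of -0.38 ± 0.16, adjusted p = 0.0826, which did not pass. Its fall was called in the fit of the 11 wildtype libraries alone, with the mitochondrial share as a term, and without CDAHFD 4.

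Over the whole table the diet changed 4630 of 17104 genes tested, 27.1%, by edgeR's quasi-likelihood test at an adjusted p under 0.05. Of these 2537 (14.8% of the genes tested) rose and 2093 (12.2%) fell. The rises were larger: 1017 genes (5.95%) rose at least 2-fold and 373 (2.18%) fell at least 2-fold, and the median log2 fold change was 0.83 among rises, -0.55 among falls and -0.01 over all genes. In 2374 genes (13.9%) the groups did not overlap, with all 6 CDAHFD livers above all 5 chow livers in 1359 and below them in 1015. The split of directions depends on scaling. With raw library totals in place of TMM scaling the median of all genes moved by 0.23 on the log2 scale, and 5368 genes were called higher and 704 lower, so that 88.4% of calls were rises against 54.8%. Levels below are relative to the TMM scale. The library names of 4 chow and 3 CDAHFD livers are 5-digit numbers and those of the other 4 wildtype livers 4-digit numbers. These 4 are chow 1 and CDAHFD 1 to 3, so in chow the 4-digit series and that single library cannot be told apart. The labels do not call these series batches, and with only the 5-digit libraries of all groups 2264 genes were called, 1312 higher and 952 lower. No gene switched fully: 0 genes had under 3 counts in every chow library and 1 CPM or more in every CDAHFD library, and 0 showed the reverse.

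The 47 gene lists described below are set against those shares, with no test of a list. The highest shares called higher were in leukocyte signalling (32 of 33) and mitotic genes (43 of 47), and the highest shares called lower in cytochrome P450 family 2 (16 of 35) and in the urea cycle and amino acid breakdown (17 of 38). On the TMM scale the smallest share called was in the cytosolic ribosomal proteins, where 2 of 82 rose and 2 fell (median -0.06), but by raw totals 24 rose and 0 fell (median 0.17). Leaving out 1 library at a time gave 0 to 3 rises and 0 to 6 falls, with 6 falls without CDAHFD 1 and no call of either kind without chow 5.

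**Figure D1:**
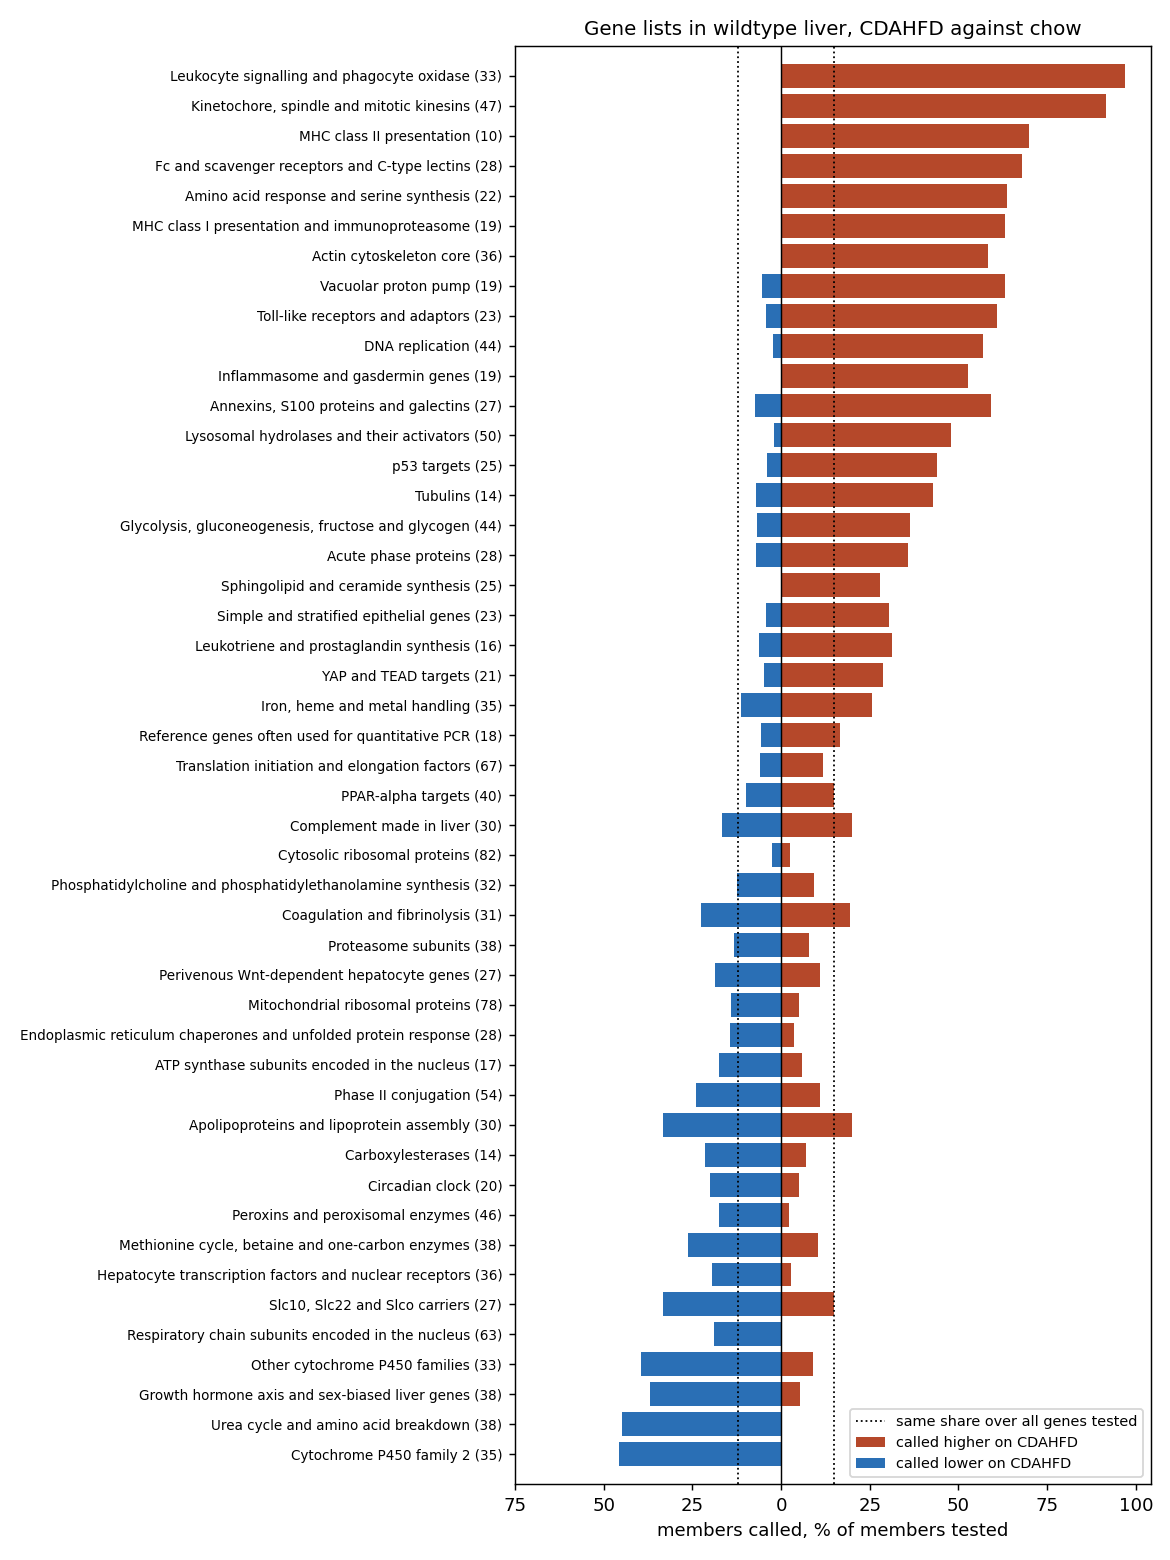
Percentage of the tested members of each gene list (number tested in brackets) that edgeR called higher (right) or lower (left) in wildtype liver on CDAHFD against chow. Dotted lines mark the shares over all genes tested, 14.8% higher and 12.2% lower, and the lists are ordered by the difference of their shares, from leukocyte signalling at the top to cytochrome P450 family 2 at the bottom.

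The 12 largest rises were taken among protein-coding genes with a mean of 1 CPM or more in the higher group. They were led by Mmp12, which encodes the elastase of macrophages (5.85 ± 0.69 on the log2 scale), Sprr1a, a cross-linked envelope protein of stressed epithelia (5.58 ± 0.72), Gpnmb, a membrane glycoprotein of lipid-laden macrophages (5.56 ± 0.8), Ly6d (5.05 ± 0.68) and the ubiquitin-like Ubd (4.99 ± 0.82). Clec4e, a lectin receptor of myeloid cells, followed at 4.88 ± 1.17, a call lost with voom (adjusted p = 0.115), and Gm21188 was at 4.56 ± 0.58. Chow means were near 0 for Sprr1a (0.114 CPM), Ubd (0.183 CPM), Clec4e (0.061 CPM) and Gm21188 (0.111 CPM). Clec4e was also at 0 CPM in CDAHFD 5. The other 5 are given with more detail. Cidec, which fuses lipid droplets into larger ones, was at 1.38, 0.585, 0.427, 0.854 and 0.686 CPM in chow and 7.82, 16.5 and 35.1 CPM on CDAHFD (log2 fold change 4.56 ± 0.62, adjusted p = 1.01e-05). For groups of 6 livers the 3 values given here and below are the lowest, the median and the highest, and a value with ± is the log2 fold change of CDAHFD against chow with its standard error from edgeR. All 6 CDAHFD livers lay above all 5 chow livers. Lcn2, whose protein binds the iron carriers of bacteria, was at 5.34, 19.4, 10.7, 10.7 and 6.34 CPM in chow and 66.1, 181 and 309 CPM on CDAHFD (4.09 ± 0.51, adjusted p = 3.67e-06), again without overlap. Gsta1 and Gm3776, 2 alpha-class glutathione transferase loci that can share reads, were at log2 fold changes of 4.43 ± 0.8 and 4.81 ± 0.8, and chow 1 had the highest chow level of both. The chemoattractant gene Ccl7 rose from 0 to 0.201 CPM in chow to 0.602 to 2.83 CPM on the diet (4.17 ± 0.53, adjusted p = 3.06e-06).

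The 12 largest falls were led by Serpina1e, of the near-identical antitrypsin genes (-4.41 ± 0.79), and the steroid reductase gene Hsd3b5 (-4.2 ± 0.92). They also held the phosphate carrier gene Slc34a2 (-3.86 ± 0.48), the fatty acid desaturase gene Scd1 (-3.49 ± 0.43), Cyp2c69 (-3.3 ± 0.52) and Slc22a28 (-3.14 ± 0.65), both of the latter from families of close copies. Slc13a2, which encodes a carrier of citrate and other dicarboxylates, was at 1.79, 3.8, 3.53, 1.56 and 1.74 CPM in chow and 0.03303, 0.132 and 0.321 CPM on CDAHFD (-3.96 ± 0.43, adjusted p = 4.88e-07). Chrna4, which encodes a subunit of nicotinic acetylcholine receptors, was at 16.4, 33.2, 16.1, 22.7 and 10.8 CPM in chow and 0.898, 2.08 and 4.75 CPM on CDAHFD (-3.14 ± 0.65, adjusted p = 0.000859). Both were lower in every CDAHFD liver than in any chow liver. Clic3, an intracellular chloride channel gene, fell by 3.23 on the log2 scale (SE 0.73), with 5 of 6 CDAHFD livers below every chow liver. Sult3a1, a sulfotransferase of a family with near-identical copies, was at 141, 117, 160.4, 98.1 and 138 CPM in chow and 6.64, 18.8 and 24.6 CPM on CDAHFD (-3.02 ± 0.82, adjusted p = 0.00804), without overlap. Gm3839 also fell (-3.81 ± 0.35, adjusted p = 3.98e-08), from 3.64 to 10.5 CPM down to 0.231 to 0.732 CPM. Gm20708 passed in the main test (-3.36 ± 0.93, adjusted p = 0.00902), but chow 3 was at 0.695 CPM against 24.8 to 84.7 CPM in the other chow livers, and the call was lost with voom.

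Abundant plasma protein transcripts moved in both directions. Alb, which encodes serum albumin, was at 65120, 78880, 91100, 82020 and 82000 CPM in chow and 41450, 52170 and 69340 CPM on CDAHFD (-0.53 ± 0.15, adjusted p = 0.0105), and 4 of 6 CDAHFD livers lay below every chow liver. Its mean fell by 24470 CPM, the most among called genes, but it was not called by raw totals (-0.3, adjusted p = 0.0544) or in the 5-digit series (-0.4, 0.194). Hpx, which encodes the heme scavenger hemopexin, was at 2700, 3151, 3096, 2777 and 2770 CPM in chow and 3832, 5029 and 5879 CPM on CDAHFD (0.79 ± 0.12, adjusted p = 3.02e-05). Hp, which encodes the hemoglobin scavenger haptoglobin, was at 2425, 3071, 3044, 2928 and 3322 CPM in chow and 3559, 4824 and 5805 CPM on CDAHFD (0.7 ± 0.15, adjusted p = 0.000859). For both, all CDAHFD livers were above all chow livers. The apolipoprotein gene Apoa4, made in liver and gut, had the largest fold among these transcripts, at 234, 350.2, 253, 447 and 345 CPM in chow and 1308, 2214 and 2592 CPM on CDAHFD (2.65 ± 0.28, adjusted p = 4.24e-07). H2-D1, a class I antigen presentation gene, rose from 605 to 771 CPM to 1144 to 1284 CPM (0.81 ± 0.09, adjusted p = 5.24e-07). Transcripts of the mitochondrial genome made up 5 of the 10 largest losses, among them mt-Co1, a subunit of cytochrome c oxidase, at 40870, 41060, 28750, 47450 and 50600 CPM in chow and 22160, 28090 and 37310 CPM on CDAHFD (-0.55 ± 0.16, adjusted p = 0.0124). Its lowest chow value, 28750 CPM, was in chow 3, the chow library with the lowest mitochondrial share. With that share as a term of the fit mt-Co1 was at -0.2 (adjusted p = 0.0636), and by raw totals at -0.32 (0.156), so neither fit called it. The share is a sum that includes the mitochondrial transcripts themselves, so the fit with it as a term cannot decide whether they changed. The calls of mt-Cytb, mt-Nd4 and mt-Co3 were lost in the same 2 fits, and that of mt-Rnr2 was kept in both. Mup22, 1 of the near-identical major urinary protein genes, was at 21770, 16900, 16630, 10350 and 18000 CPM in chow and 2581, 6380 and 7154 CPM on CDAHFD (-1.52 ± 0.38, adjusted p = 0.00392). Selenop, Apoa5 and Ftl1 were called higher, but these calls were lost when single libraries of either group were left out (adjusted p up to 0.134 for Selenop without chow 5, 0.105 for Apoa5 without CDAHFD 6 and 0.0764 for Ftl1 without chow 4, and each call was also lost without 6 other single libraries).

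**Figure D2:**
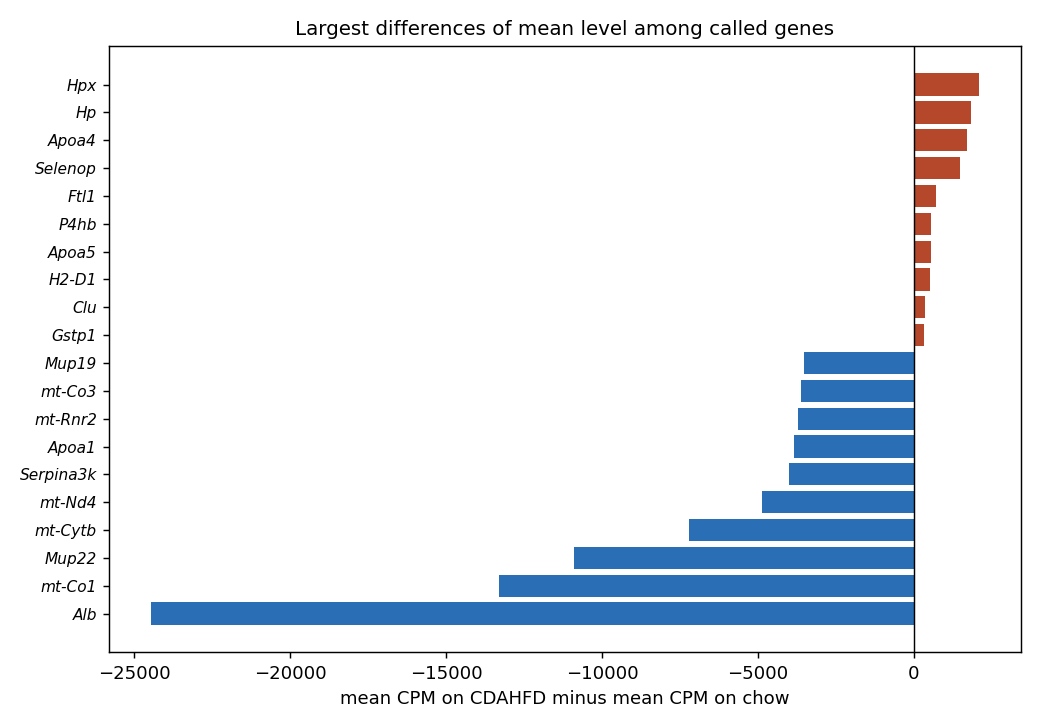
Difference of mean CPM between 6 CDAHFD and 5 chow livers for the 10 largest gains and the 10 largest losses among called genes. The losses, led by Alb at -24470 CPM and mt-Co1 at -13290 CPM, are larger than the gains, led by Hpx at 2099 CPM, and values are not corrected for transcript length.

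Genes of leukocyte signalling rose together. Of 33 members 32 were called higher and 0 lower, with a median log2 fold change of 1.17 against -0.01 over all genes. Cybb, the catalytic subunit of the phagocyte oxidase that makes superoxide, was at 15.9, 11.6, 11, 21.2 and 12.2 CPM in chow and 24.2, 38.5 and 59.9 CPM on CDAHFD (1.5 ± 0.21, adjusted p = 8.45e-06), and its partner Cyba at 11.7, 6.19, 8.71, 11.3 and 7.71 CPM in chow and 17.7, 24.9 and 35.3 CPM on CDAHFD (1.51 ± 0.2, adjusted p = 4.24e-06). No CDAHFD liver overlapped a chow liver for either. Inpp5d, a lipid phosphatase that restrains signalling in blood cells, rose by 1.02 ± 0.13. Itgax, an integrin of macrophages and dendritic cells chosen here after its values were seen, rose most, by 3.01 ± 0.42. In the 5-digit series of library numbers alone 18 of the 33 were called higher and the median was 0.78. With the number series as a term 31 were, with a median of 1.06. Cybb was at 42.3, 52.5 and 59.9 CPM in CDAHFD 1 to 3, of the 4-digit series. It was at 34.7, 30.2 and 24.2 CPM in CDAHFD 4 to 6, of the 5-digit series. The part of the series in these levels was not tested.

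These genes moved with markers of resident macrophages. The summed level of 6 Kupffer cell markers was 156 to 313 CPM in chow and 328 to 501 CPM in CDAHFD livers, with 4 of 6 called higher. The sum of 12 neutrophil markers was 4.48 to 6.98 CPM against 6.83 to 25.4 CPM. Only 4 of the 12 passed the filter, and 3 of these were called higher. Of that sum Csf3r alone had a mean of 3.71 CPM in chow and 7.65 CPM on the diet. The sum of 12 T and NK cell markers was 6.26 to 9.86 against 7.73 to 13.9 CPM. Of these 12 markers 2 were called higher and 0 lower, where 14.8% of all genes were called higher. Of 8 dendritic cell markers 5 were called higher and 1 lower. Stellate cell markers had 1 of 7 called higher, cholangiocyte markers 1 of 6 tested in each direction, and sinusoidal endothelium, mesothelium and muscle markers none. B and plasma cell markers ran from 18.2 to 25 CPM in chow and from 13.3 to 18.8 CPM on the diet, with 0 of 8 called. In bulk liver a larger number of cells of a type and more RNA per cell cannot be told apart, and the part of cell numbers in the results was not tested.

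**Figure D3:**
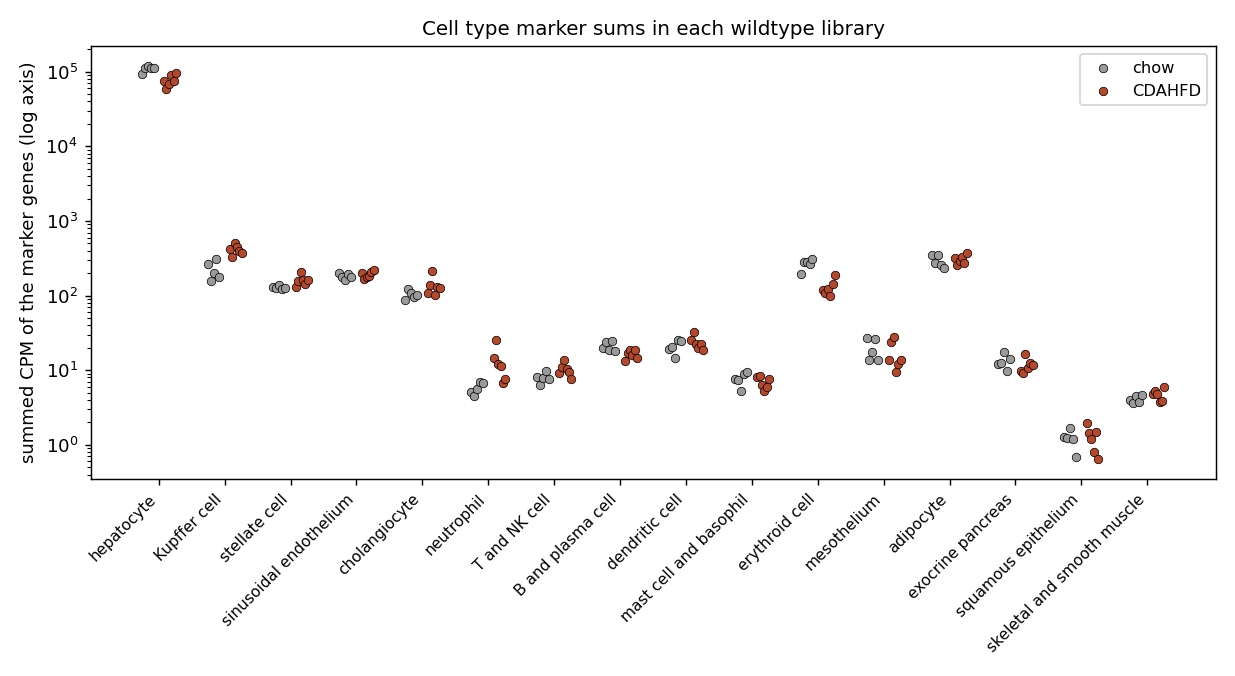
Summed CPM (log axis) of the marker genes of 16 cell types in each of the 5 chow (grey) and 6 CDAHFD (red) livers, 1 point per library. Kupffer cell sums lie at 328 to 501 CPM on the diet, above the chow values of 156 to 313 CPM, and the erythroid sums lie at 97.5 to 187 CPM, below the chow values of 193 to 313 CPM.

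Receptors of innate immunity also rose. Among Fc receptors, scavenger receptors and C-type lectins 19 of 28 rose and 0 fell (median 1.3). Clec4n, which encodes a receptor for fungal mannans, was at 2.12, 1.71, 1.87, 2.26 and 1.901 CPM in chow and 4.17, 7.28 and 9.98 CPM on CDAHFD (1.82 ± 0.22, adjusted p = 2.12e-06). Fcgr3, a receptor for antibody complexes, was at 5.89, 4.14, 4.76, 5.98 and 4.38 CPM in chow and 9.07, 14.6 and 17.6 CPM on CDAHFD (1.45 ± 0.18, adjusted p = 3.06e-06). Axl, a receptor tyrosine kinase for the clearance of dead cells, rose by 1.3 ± 0.15. All 3 separated the groups fully. Of 23 Toll-like receptors and adaptors 14 rose and 1 fell (median 0.82). Tlr2, which senses bacterial lipoproteins, was at 2.21, 1.66, 1.603, 2.31 and 1.48 CPM in chow and 4.74, 7.89 and 13.5 CPM on CDAHFD (2.21 ± 0.33, adjusted p = 2.33e-05), and Tlr13, which senses bacterial ribosomal RNA, rose by 2.09 ± 0.31. Tirap, an adaptor of Tlr2 and Tlr4, went the other way, at -0.45 ± 0.11, with 5 of 6 CDAHFD livers below every chow liver. In the 5-digit series alone 12 of the 28 receptors (median 0.99) and 9 of the 23 Toll-like genes (median 0.47) were called higher.

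Antigen presentation genes of both classes rose. Of 10 class II genes 7 rose (median 1.35). Cd74, the invariant chain that escorts class II molecules, was at 43.7, 41.4, 60.7, 67.2 and 43.1 CPM in chow and 90.2, 121 and 208 CPM on CDAHFD (1.37 ± 0.19, adjusted p = 9.58e-06), and H2-Ab1 and H2-DMb1 rose by 1.48 ± 0.21 and 1.53 ± 0.19. The class I list had 12 of 19 higher with a smaller median of 0.34, including Tap1, which pumps peptides into the endoplasmic reticulum, at 31.8, 24.1, 29.1, 34.2 and 28.2 CPM in chow and 40.8, 51.8 and 56.3 CPM on CDAHFD (0.75 ± 0.1, adjusted p = 8.62e-06). B2m, the shared light chain of class I molecules, was at 1955, 1860, 1673, 1866 and 1922 CPM in chow and 1696, 1770 and 2092 CPM on CDAHFD, a log2 fold change of -0.02 ± 0.12, adjusted p = 0.921. In the 5-digit series 6 of the 10 class II (median 1.02) and 7 of the 19 class I genes (median 0.33) were called higher.

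In the inflammasome list 10 of 19 rose and 0 fell (median 0.54). The largest rise was in Il1rn, the natural antagonist of interleukin 1, at 3.22, 1.51, 2.89, 4.82 and 4.65 CPM in chow and 8.33, 18.8 and 26.5 CPM on CDAHFD (2.34 ± 0.38, adjusted p = 6.03e-05). Il18bp, the binding protein that neutralises interleukin 18, rose by 0.81 ± 0.09 with no overlap, and the sensor gene Nlrp3 rose by 1.2 ± 0.28 with 4 of 6 CDAHFD livers above every chow liver. This count rested on single libraries: it was 4 without CDAHFD 2, 5 without each of chow 2, chow 3 and CDAHFD 3, and 3 in the 5-digit series alone. Of 16 leukotriene and prostaglandin genes 5 rose and 1 fell. Tbxas1, thromboxane synthase, rose by 1.21 ± 0.17, and Pla2g4a, which frees arachidonic acid from membranes, by 1.37 ± 0.27. Ptgds, a prostaglandin D synthase, fell, from 17.9, 21.8, 17.1, 24.7 and 17.2 CPM in chow and 3.79, 5.67 and 11.1 CPM on CDAHFD (-1.66 ± 0.44, adjusted p = 0.00661), with every CDAHFD liver below every chow liver.

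Lysosomal genes rose in smaller steps. Of 50 hydrolases and activators 24 rose and 1 fell (median 0.31), with 16 and 1 in the 5-digit series and 19 and 7 with the mitochondrial share as a term (median 0.12). Lgmn, the asparaginyl protease legumain, was at 47.6, 34.4, 43.3, 47.6 and 32.8 CPM in chow and 83.2, 88.7 and 138 CPM on CDAHFD (1.24 ± 0.13, adjusted p = 2.15e-07), Ctss, a cathepsin that trims the invariant chain, at 21.7, 14.6, 21.3, 23.4 and 12.8 CPM in chow and 43.9, 59.7 and 124 CPM on CDAHFD (1.84 ± 0.21, adjusted p = 9.13e-07). Hexa, a hexosaminidase subunit that degrades gangliosides, was at 38.3, 29.7, 40.7, 31 and 27.7 CPM in chow and 57.9, 60.8 and 75.4 CPM on CDAHFD (0.95 ± 0.12, adjusted p = 2.88e-06). The groups did not overlap for these 3 genes, and CDAHFD 3 was the highest library for Lgmn and Ctss. Gm2a, the activator protein that presents gangliosides to that hexosaminidase, fell in the same livers, from 135, 136, 149, 133 and 120.1 CPM in chow and 68.8, 87.5 and 101 CPM on CDAHFD (-0.66 ± 0.11, adjusted p = 7.41e-05). Of 19 subunits and accessory proteins of the vacuolar proton pump, which acidifies lysosomes, 12 rose and 1 fell (median 0.30). Atp6v1b2 rose by 0.72 ± 0.15, Atp6v0e by 0.68 ± 0.13 and Atp6v0d2 by 0.71 ± 0.16, while Atp6v0a1 fell by 0.33 on the log2 scale (SE 0.09), a call lost without chow 5 (adjusted p = 0.0517). In the 5-digit series alone the pump counts were 5 higher and 0 lower.

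Among lysosomal genes with a promoter window in the RefSeq table (41 of the 50), 3 windows (7.32%) held the 8-base E-box TCACGTGA, which reads the same on both strands, against 1.01% of 27025 windows of the same 300 bases. Those 27025 windows also cover genes not tested in these livers. The window of Ifi30, a lysosomal thiol reductase gene that rose by 1.21 ± 0.18, is shown because it had the lowest p of the 3. Its printed stretch runs from 217 bases before the start of the gene to 30 after it, 5′ to 3′ on the minus strand of GRCm38.p6 (chr8:70766634-70766880), with the E-box in capitals starting 197 bases before the start.
Ifi30: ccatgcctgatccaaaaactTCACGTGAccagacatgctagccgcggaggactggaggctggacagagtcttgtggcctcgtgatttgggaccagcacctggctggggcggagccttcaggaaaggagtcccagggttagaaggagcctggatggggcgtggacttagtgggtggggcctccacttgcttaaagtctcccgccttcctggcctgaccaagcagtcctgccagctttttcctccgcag
A match of letters describes the sequence and was not tied to any factor here.

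Genes of cell shape changed with the diet. Of 36 actin cytoskeleton genes 21 rose and 0 fell (median 0.41), and 10 rose in the 5-digit series. Tpm1, a tropomyosin that lines actin filaments, was at 38.9, 42.8, 39.2, 35.5 and 36.1 CPM in chow and 61.7, 69.2 and 83.5 CPM on CDAHFD (0.89 ± 0.11, adjusted p = 3.06e-06), the filament crosslinker Flna rose by 0.98 ± 0.15 and Arpc1b, of the complex that branches filaments, by 0.61 ± 0.09. Of 14 tubulins and partners 6 rose and 1 fell. Stmn1, which frees tubulin from microtubules, was at 6.08, 6.09, 7.48, 7.49 and 9.29 CPM in chow and 16.5, 27.8 and 45.8 CPM on CDAHFD (2.07 ± 0.26, adjusted p = 2.88e-06) and Tubb6 at 10.1, 12.7, 15.6, 14.1 and 12.5 CPM in chow and 25.7, 30.9 and 39.9 CPM on CDAHFD (1.33 ± 0.16, adjusted p = 1.75e-06). Both separated the groups. Tuba4a moved against its family, from 173, 201, 214, 150.1 and 142 CPM in chow and 81.2, 106 and 141 CPM on CDAHFD (-0.66 ± 0.21, adjusted p = 0.0204), but its adjusted p was 0.0544 without chow 2, 0.0552 without chow 3 and 0.0539 without CDAHFD 2.

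Annexins, S100 proteins and galectins, which bind calcium, membranes or sugars, rose in 16 of 27 members and fell in 2 (median 0.91). Anxa2, which bridges membranes and actin, was at 17.2, 16.4, 15.3, 20.9 and 17.6 CPM in chow and 59.2, 76.2 and 121 CPM on CDAHFD (2.23 ± 0.27, adjusted p = 2.41e-06), Anxa5, a binder of phosphatidylserine, at 70.8, 76.7, 87.3, 65 and 61.3 CPM in chow and 147, 183 and 299 CPM on CDAHFD (1.45 ± 0.19, adjusted p = 4.6e-06), and the galectin gene Lgals1 at 19.8, 9.403, 10.9, 15.7 and 15.4 CPM in chow and 35.5, 51.7 and 65 CPM on CDAHFD (1.84 ± 0.22, adjusted p = 2.14e-06). No liver overlapped between groups for these 3. S100a1 fell by 0.40 on the log2 scale (SE 0.12), with 3 of 6 CDAHFD livers below every chow liver. Among 23 epithelial genes 7 rose and 1 fell (median 0.15). Krt8, a keratin of hepatocytes and bile ducts, was at 218, 275, 255, 267 and 218 CPM in chow and 483, 570.2 and 710.2 CPM on CDAHFD (1.21 ± 0.17, adjusted p = 8.28e-06), and the desmosome plaque gene Pkp2 fell, from 44, 44.7, 53.4, 42.5 and 42.7 CPM in chow and 25, 28.8 and 33 CPM on CDAHFD (-0.67 ± 0.08, adjusted p = 2.65e-06). The sum of 7 squamous epithelium markers stayed at 0.642 to 1.97 CPM in all 11 livers. Of 21 YAP and TEAD targets 6 rose and 1 fell, with Ccn2, a matricellular growth factor gene, at 2.302, 3.17, 2.89, 3.12 and 3.54 CPM in chow and 4.91, 9.72 and 14.2 CPM on CDAHFD (1.64 ± 0.31, adjusted p = 0.000257) and the membrane repair gene Myof at 1.45 ± 0.23.

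Of 47 kinetochore, spindle and mitotic kinesin genes 43 rose and 0 fell, with a median of 1.87. In the 5-digit series alone 39 rose (median 1.91). Racgap1, which sets the site of the cleavage furrow, was at 1.24, 0.926, 1.07, 1.46 and 1.48 CPM in chow and 3.89, 7.26 and 10.6 CPM on CDAHFD (2.58 ± 0.35, adjusted p = 6.21e-06), Kif20a, a kinesin of cell separation, at 1.105, 1.12, 0.962, 1.76 and 1.58 CPM in chow and 3.55, 8.41 and 11.5 CPM on CDAHFD (2.61 ± 0.37, adjusted p = 1.17e-05). Tpx2, which builds spindle microtubules, was at 0.783, 1.27, 0.748, 1.91 and 1.64 CPM in chow and 3.97, 7.76 and 11.5 CPM on CDAHFD (2.58 ± 0.38, adjusted p = 1.6e-05). Chow levels were under 2 CPM and every CDAHFD liver lay above every chow liver for the 3 genes. Of 44 DNA replication genes 25 rose and 1 fell, and their median was 0.65. The helicase subunit Mcm6 was at 4.37, 5.07, 4.703, 5.23 and 3.48 CPM in chow and 9.07, 16.8 and 24.4 CPM on CDAHFD (1.92 ± 0.3, adjusted p = 3.23e-05), Rrm2, a subunit of ribonucleotide reductase, at 4.79, 3.85, 3.1, 3.47 and 3.802 CPM in chow and 8.43, 9.59 and 13.3 CPM on CDAHFD (1.38 ± 0.21, adjusted p = 2.37e-05), and the clamp loader gene Rfc2 rose by 0.73 ± 0.09. Tk1, which salvages thymidine, was lower in every CDAHFD liver, at 31.1, 31, 35.3, 25 and 34.4 CPM in chow and 10.8, 20.5 and 24.2 CPM on CDAHFD (-0.74 ± 0.23, adjusted p = 0.0176).

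The promoters of these genes were read from the RefSeq table, which held a window for 41 of the 47 mitotic and 36 of the 44 replication genes. The pair of motifs CCAAT (or ATTGG on the other strand) and TTTGAA (or TTCAAA), the latter known as the cell cycle homology region, stood together in 24 of 41 mitotic windows (58.5%), 5 of 36 replication windows (13.9%) and 7.12% of all 27025 windows. The E2F motif TTCCCGCC (or GGCGGGAA) was found in 7 replication windows (19.4%), in 4.88% of the mitotic windows and in 2.24% of all windows. All windows again include those of genes not tested in these livers. None of these motifs contains another. The 4 promoters below are shown as the members with the lowest p that held the motifs of their list, each 5′ to 3′ on the strand of its gene in GRCm38.p6, with the motifs in capitals. Racgap1 is on the minus strand (chr15:99651627-99651756), Spc25, a kinetochore subunit, on the minus strand (chr2:69206184-69206313), and Prc1, which bundles the microtubules of the spindle midzone, on the plus strand (chr7:80294351-80294480). These 3 run from 100 bases before the start to 30 after it. Rrm1, the large subunit of ribonucleotide reductase, is on the plus strand (chr7:102441584-102441724) and is printed from 111 bases before the start.
Racgap1: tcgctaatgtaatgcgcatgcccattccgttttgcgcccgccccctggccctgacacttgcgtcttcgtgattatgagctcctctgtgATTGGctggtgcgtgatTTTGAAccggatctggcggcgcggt
Spc25: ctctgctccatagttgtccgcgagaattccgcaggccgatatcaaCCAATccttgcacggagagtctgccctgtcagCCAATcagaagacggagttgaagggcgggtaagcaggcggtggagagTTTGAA
Prc1: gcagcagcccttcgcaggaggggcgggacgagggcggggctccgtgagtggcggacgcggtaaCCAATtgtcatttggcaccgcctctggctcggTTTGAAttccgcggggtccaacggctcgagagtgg
Rrm1: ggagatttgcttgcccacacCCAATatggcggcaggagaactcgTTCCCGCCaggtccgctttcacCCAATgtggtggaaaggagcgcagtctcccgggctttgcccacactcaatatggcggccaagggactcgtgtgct
In Racgap1 the ATTGG letters began 12 bases before the start and TTTGAA 6 after it, and in Prc1 CCAAT began 37 and TTTGAA 5 bases before it. Spc25 had CCAAT 55 and 23 bases before and TTTGAA 25 after its start. In Rrm1 TTCCCGCC lay 67 bases before the start, between CCAAT letters at 91 and 45. The matched genes rose by 2.58 ± 0.35 (Racgap1), 1.4 ± 0.21 (Spc25), 2.49 ± 0.38 (Prc1) and 0.81 ± 0.15 (Rrm1) on the log2 scale.

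Genes that answer amino acid shortage rose in 14 of 22 members and fell in 0 (median 1.04), and in 7 in the 5-digit series. Psat1, an enzyme of serine synthesis, was at 1.24, 1.46, 1.12, 1.21 and 1.16 CPM in chow and 2.33, 6.24 and 8.81 CPM on CDAHFD (2.28 ± 0.39, adjusted p = 9.97e-05), the stress factor gene Atf3 at 2.44, 1.51, 1.71, 2.41 and 2.43 CPM in chow and 7.22, 14.5 and 25.1 CPM on CDAHFD (2.84 ± 0.5, adjusted p = 0.000164). Gpt2, a mitochondrial alanine transaminase, was at 232, 236, 244, 223 and 239 CPM in chow and 373, 395 and 563 CPM on CDAHFD (0.87 ± 0.15, adjusted p = 0.00011). Groups did not overlap for any of them. Nupr1, a stress-induced chromatin protein gene chosen here after its values were seen, rose by 3.39 ± 0.66. The translation repressor gene Eif4ebp1 rose as well, from 40.5, 36, 42.8, 29.2 and 26.4 CPM in chow and 55, 64.4 and 69 CPM on CDAHFD (0.85 ± 0.12, adjusted p = 1.08e-05). Atf4, which encodes the factor that drives many of these genes, had a lower transcript level in every CDAHFD liver, at 164, 155, 158, 193 and 173 CPM in chow and 99.9, 116 and 152 CPM on CDAHFD (-0.51 ± 0.17, adjusted p = 0.0225), a call lost without chow 4 (adjusted p = 0.0628), CDAHFD 2 (0.0536) or CDAHFD 3 (0.0555).

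Of 28 endoplasmic reticulum chaperones and stress genes only P4hb rose and 4 fell, with a median of -0.01 (0.23 by raw totals). P4hb, a disulfide isomerase, was at 984, 1069, 1247, 888 and 825 CPM in chow and 1315, 1566 and 1813 CPM on CDAHFD (0.64 ± 0.11, adjusted p = 0.00016). Sel1l and Syvn1, partners in the removal of misfolded proteins, were at log2 fold changes of -0.54 ± 0.09 and -0.87 ± 0.21, both lower in every CDAHFD liver. The number of falls was 2 without chow 4, CDAHFD 2 or CDAHFD 3, and the rises numbered 4 without chow 3. Targets of p53 rose in 11 of 25 members and fell in 1 (median 0.59). Phlda3, which restrains Akt, was at 1.89, 1.46, 1.39, 1.26 and 1.95 CPM in chow and 3.45, 7.47 and 11.9 CPM on CDAHFD (2.25 ± 0.33, adjusted p = 1.48e-05), the apoptosis gene Pmaip1 rose by 1.88 ± 0.32, and Bbc3, another apoptosis gene, fell, from 19.8, 21.6, 21.1, 15.5 and 19.4 CPM in chow and 5.58, 11.4 and 14.6 CPM on CDAHFD (-0.8 ± 0.22, adjusted p = 0.00862). In the 5-digit series alone 3 of the 25 rose and 1 fell (median 0.19).

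Enzymes that handle the methyl group of choline and methionine moved both ways. Of 38 genes 10 fell, 4 rose and 24 were not called, with a median of -0.24, whereas by raw totals 5 fell and 14 rose (median -0.01). Bhmt, which uses betaine made from choline to remake methionine, was at 3334, 4471, 3620, 5680 and 4305 CPM in chow and 1401, 2321 and 3047 CPM on CDAHFD (-0.98 ± 0.17, adjusted p = 0.000115). Cth, which makes cysteine, was at 278, 338, 294, 310.2 and 356 CPM in chow and 98.8, 176 and 252 CPM on CDAHFD (-0.85 ± 0.2, adjusted p = 0.00252). Ftcd, of histidine and folate breakdown, was at 576, 676, 506, 713 and 743 CPM in chow and 365, 412 and 493 CPM on CDAHFD (-0.62 ± 0.11, adjusted p = 0.00011). Every CDAHFD liver was below every chow liver for the 3 genes. Mat2a, the form of methionine adenosyltransferase found outside resting hepatocytes, rose, from 82.8, 74.3, 78, 75.8 and 74 CPM in chow and 89.4, 106 and 161 CPM on CDAHFD (0.57 ± 0.16, adjusted p = 0.00763). The falls numbered 6 without chow 3, 2 in the 5-digit series and 19 with the mitochondrial share as a term of the fit.

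Among 32 genes of phosphatidylcholine and phosphatidylethanolamine synthesis and choline transport 4 fell and 3 rose, shares of 12.5% and 9.38% that lie near the 12.2% and 14.8% of all genes. Pcyt2, which makes the activated form of ethanolamine, was at 900.3, 1200, 942, 1126 and 1264 CPM in chow and 464, 644 and 678 CPM on CDAHFD (-0.82 ± 0.14, adjusted p = 6.93e-05), and Pnpla6, a phospholipase that degrades phosphatidylcholine, at -0.57 ± 0.09. Both were lower in all CDAHFD livers than in any chow liver. Lpcat2, which rebuilds phosphatidylcholine in inflammatory cells, rose by 0.95 ± 0.2, with 5 of 6 CDAHFD livers above every chow liver, and Gde1, a glycerophosphodiesterase, rose by 0.66 ± 0.19. Of 25 sphingolipid genes 7 rose and 0 fell (median 0.20), 2 of them in the 5-digit series. Smpd3, the neutral sphingomyelinase that splits sphingomyelin into ceramide and phosphocholine, was at 1.75, 1.02, 1.23, 0.704 and 0.845 CPM in chow and 9.95, 12 and 17.4 CPM on CDAHFD (3.5 ± 0.37, adjusted p = 4.75e-07), and its lowest CDAHFD value was several times its highest chow value. Sphk1, which makes sphingosine phosphate, rose by 1.3 ± 0.32 from levels under 1 CPM.

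Lipoprotein genes split. Of 30 genes 10 fell and 6 rose (median -0.26, and -0.02 by raw totals). Beside Apoa4, Lpl, the lipase that frees fatty acids from lipoproteins, was at 31.5, 36.8, 33.9, 51.1 and 40.03 CPM in chow and 63.6, 109.7 and 173 CPM on CDAHFD (1.59 ± 0.25, adjusted p = 4.92e-05), and the sterol exporter gene Abcg1 rose by 1.01 ± 0.14. Angptl8, a feeding-induced regulator of that lipase, was at 54.2, 106, 75.6, 142 and 161 CPM in chow and 9.02, 18.2 and 50.2 CPM on CDAHFD (-2.29 ± 0.43, adjusted p = 0.000352). Pltp, which moves phospholipid between lipoproteins, was at 61.1, 111, 69.8, 132 and 66.8 CPM in chow and 31.4, 41.6 and 48.1 CPM on CDAHFD (-1.08 ± 0.18, adjusted p = 6.13e-05). The groups did not overlap for any of these. Apoa1, the main protein of high density lipoprotein, fell by 0.45 on the log2 scale (SE 0.15), but the call was lost without chow 2 (adjusted p = 0.0892), chow 4 (0.0689), chow 5 (0.0516), CDAHFD 2 (0.0547) or CDAHFD 3 (0.0823).

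**Figure D4:**
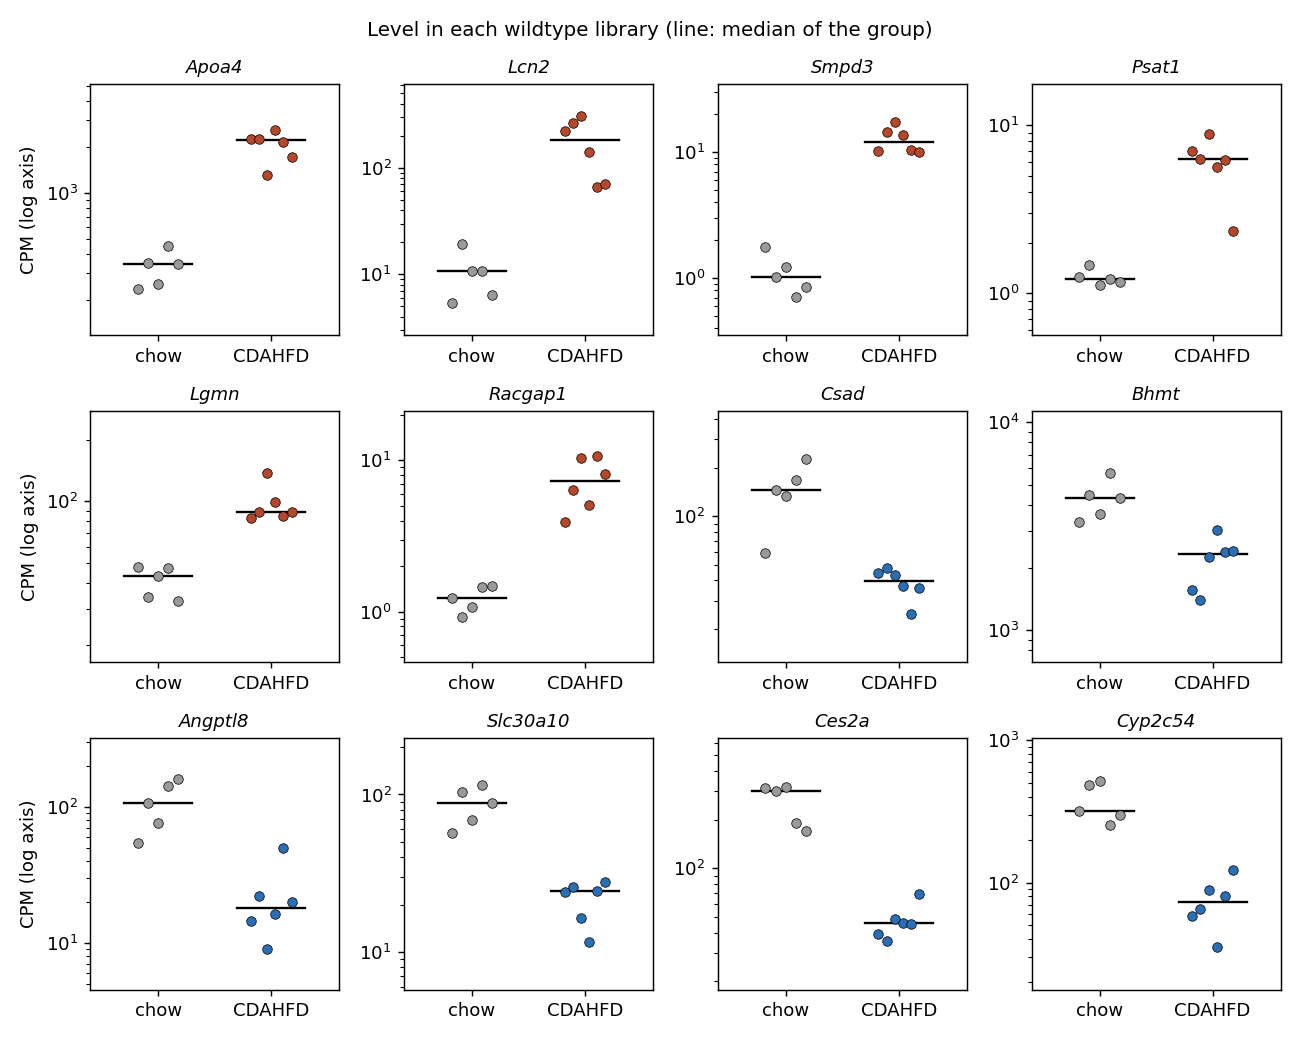
CPM (log axis) of 12 genes in each of the 5 chow (grey) and 6 CDAHFD (red where higher, blue where lower) livers, with a line at the median of each group. In every panel the groups do not overlap, as for Apoa4 (235 to 447 CPM against 1308 to 2592 CPM) and Ces2a (169.6 to 320.5 CPM against 35.6 to 69.7 CPM).

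Of 38 genes of the urea cycle and amino acid catabolism 17 fell and 0 rose, with a median of -0.43 (-0.21 by raw totals). Csad, which makes the taurine precursor hypotaurine, was at 59.4, 145, 134, 167 and 226 CPM in chow and 24.8, 39.9 and 47.7 CPM on CDAHFD (-1.92 ± 0.29, adjusted p = 3.23e-05), Haao, of tryptophan breakdown, at 599.8, 583, 565, 529 and 517 CPM in chow and 192, 287 and 356 CPM on CDAHFD (-1.0 ± 0.16, adjusted p = 4.59e-05). Uroc1, of histidine breakdown, was at 579, 666, 585, 726 and 749 CPM in chow and 284, 361 and 476 CPM on CDAHFD (-0.81 ± 0.14, adjusted p = 0.00012). All 3 were lower in every CDAHFD liver. The urea cycle genes Ass1 and Asl, chosen here after their values were seen, were at log2 fold changes of -0.7 ± 0.2 and -0.69 ± 0.22. In the 5-digit series 7 of the 38 fell (median -0.22), and with the mitochondrial share as a term 27 did (median -0.62).

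Fatty acid oxidation genes did not move as 1 group. Of 40 targets of the fasting regulator PPAR-alpha 6 rose and 4 fell (median 0.07). These shares of 15% and 10% lie near the 14.8% and 12.2% of all genes. Cpt1a, which admits fatty acids to mitochondria, was at 249, 176, 283, 187 and 240 CPM in chow and 329, 392 and 554 CPM on CDAHFD (0.87 ± 0.2, adjusted p = 0.00181), Ucp2, a mitochondrial carrier, at 47.2, 34.1, 44.6, 54.4 and 44 CPM in chow and 83, 105 and 122 CPM on CDAHFD (1.21 ± 0.13, adjusted p = 4.24e-07), and the hormone gene Fgf21 at 3.31, 1.66, 2.94, 0.955 and 1.58 CPM in chow and 5.73, 19.1 and 35.5 CPM on CDAHFD (3.18 ± 0.83, adjusted p = 0.00578). In contrast Cyp4a10, an omega-hydroxylase of fatty acids, was at 675, 424, 738, 389 and 543 CPM in chow and 140.1, 206 and 338 CPM on CDAHFD (-1.35 ± 0.31, adjusted p = 0.00191) and Fabp1, the liver fatty acid binding protein, at 4571, 2471, 3298, 3290 and 3630 CPM in chow and 1208, 2081 and 2400 CPM on CDAHFD (-0.8 ± 0.17, adjusted p = 0.001). These 5 genes separated the groups fully, 3 above and 2 below, and the Fgf21 call was lost with voom (adjusted p = 0.0539). Of 46 peroxisomal genes 8 fell and 1 rose (median -0.09, and 0.15 by raw totals). Hacl1, which shortens branched and hydroxylated fatty acids, was at 211, 240.4, 469.8, 278 and 277 CPM in chow and 81.8, 101 and 165 CPM on CDAHFD (-1.43 ± 0.29, adjusted p = 0.00069). Pipox, which degrades pipecolic acid and sarcosine, was at 299.7, 303, 308, 282 and 298 CPM in chow and 124, 158 and 188 CPM on CDAHFD (-0.89 ± 0.13, adjusted p = 1.69e-05). Chow 3 had the highest Hacl1 level of all livers. The 8 falls became 4 without CDAHFD 3, 5 without chow 1, chow 3, CDAHFD 2 or CDAHFD 4, 3 in the 5-digit series and 19 with the mitochondrial share as a term.

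Of 44 genes of sugar and glycogen metabolism 16 rose and 3 fell (median 0.23). Ugp2, which makes the glucose donor of glycogen, was at 260, 239.9, 287, 180.2 and 185 CPM in chow and 304, 384 and 402 CPM on CDAHFD (0.68 ± 0.15, adjusted p = 0.0009), and Pck2, the mitochondrial form of phosphoenolpyruvate carboxykinase, rose by 1.01 ± 0.18. Hk3, a hexokinase of leukocytes, rose by 1.17 ± 0.2. The 3 genes separated the groups. Both glycogen-targeting subunits of protein phosphatase in the list fell. Ppp1r3c was at 36, 48.1, 51.8, 49.3 and 36.8 CPM in chow and 8.13, 16.7 and 24.4 CPM on CDAHFD (-1.4 ± 0.32, adjusted p = 0.00186), without overlap, and Ppp1r3b, at 90.9, 348, 224, 255 and 263 CPM in chow and 49.2, 64.3 and 109 CPM on CDAHFD (-1.65 ± 0.32, adjusted p = 0.000419), overlapped through chow 1. The glycogen synthase and branching enzyme genes Gys2 and Gbe1, chosen here after their values were seen, rose by 1.0 ± 0.32 and 0.98 ± 0.31. Rises numbered 10 without chow 2 or chow 5, and 9 in the 5-digit series.

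Genes under growth hormone and with a sex bias in liver fell in 14 of 38 members and rose in 2 (median -0.38, and -0.15 by raw totals). No rise was called without chow 4, chow 5 or CDAHFD 1. The prolactin receptor gene Prlr was at 318, 362, 444, 459 and 444 CPM in chow and 179.6, 201 and 303 CPM on CDAHFD (-0.9 ± 0.16, adjusted p = 0.000155) and Elovl3, a fatty acid elongase, at 10.7, 8.33, 7.803, 6.13 and 7.66 CPM in chow and 1.52, 1.81 and 3.49 CPM on CDAHFD (-1.96 ± 0.32, adjusted p = 5.16e-05). Both were lower in every CDAHFD liver. The hormone's receptor Ghr, its target Igf1 and the signal factor Stat5b, all chosen here after their values were seen, were at -0.52 ± 0.18, -0.89 ± 0.16 and -0.43 ± 0.1 on the log2 scale. Of 19 major urinary protein genes, which growth hormone controls in liver, 17 fell (median -1.83) and 1 rose. Mup3 was at 3673, 4037, 4341, 2508 and 3930 CPM in chow and 922, 1481 and 1741 CPM on CDAHFD (-1.34 ± 0.23, adjusted p = 9.73e-05), while Mup20, which encodes the pheromone darcin, was at 114, 233, 132, 86.3 and 140.3 CPM in chow and 212, 303 and 981 CPM on CDAHFD (1.6 ± 0.59, adjusted p = 0.0457). The Mup20 call was lost without CDAHFD 2 (adjusted p = 0.134), chow 4 (0.105) and 5 other single libraries, and reads can be shared across this family.

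Drug-metabolising enzymes were mostly lower where they were called. Of 35 members of cytochrome P450 family 2, 16 fell and 0 rose (median -0.35, and -0.13 by raw totals), 10 without chow 2 or CDAHFD 2 and 8 in the 5-digit series. Cyp2b10, an enzyme induced by the receptor CAR, was at 14.9, 24.8, 23.6, 17.9 and 11.3 CPM in chow and 1.88, 2.69 and 5.497 CPM on CDAHFD (-2.58 ± 0.31, adjusted p = 1.57e-06), and Cyp2j9 at 18.8, 19.4, 16.4, 16.1 and 20.4 CPM in chow and 2.94, 3.82 and 4.83 CPM on CDAHFD (-2.21 ± 0.27, adjusted p = 2.27e-06). Of the 33 other cytochrome genes listed 13 fell and 3 rose (median -0.49, and -0.25 by raw totals). Cyp27a1, which opens 1 route of bile acid synthesis, was at 405, 553, 526, 427 and 468 CPM in chow and 194, 214 and 264 CPM on CDAHFD (-1.12 ± 0.12, adjusted p = 5.24e-07), and Cyp3a11 at 2903, 2386, 3547, 1848 and 1922 CPM in chow and 900.2, 1070 and 1365 CPM on CDAHFD (-1.22 ± 0.17, adjusted p = 8.28e-06). All 4 were lower in every CDAHFD liver. The Cyp4f subfamily split: Cyp4f18, found in leukocytes, rose by 2.11 ± 0.31 and Cyp4f16 by 0.74 ± 0.14, while Cyp4f13 was at -0.75 ± 0.1.

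Conjugating enzymes and transporters split within families. Of 54 phase II genes 13 fell and 6 rose (median -0.16, and 0.08 by raw totals). Gstp1, a pi-class glutathione transferase, was at 345, 361, 275, 296 and 402 CPM in chow and 465, 696 and 795 CPM on CDAHFD (0.98 ± 0.19, adjusted p = 0.000264), and its copy Gstp2 rose by 1.7 ± 0.27, whereas the mu-class Gstm6 was at -0.7 ± 0.12. The glucuronosyltransferase genes Ugt1a5 and Ugt2b37, from families whose members share sequence, were at -1.86 ± 0.3 and -1.83 ± 0.29. Of 14 carboxylesterases 3 fell and 1 rose (median -0.29, and -0.05 by raw totals), but 5 fell without CDAHFD 6, 2 rose without CDAHFD 2, and 6 fell with the mitochondrial share as a term. Ces2a, which hydrolyses drugs and acylglycerols, was at 316, 303, 320.5, 189.6 and 169.6 CPM in chow and 35.6, 45.6 and 69.7 CPM on CDAHFD (-2.45 ± 0.24, adjusted p = 9.28e-08), Ces3b at 388, 602, 478, 554 and 366 CPM in chow and 70.1, 98.5 and 157 CPM on CDAHFD (-2.11 ± 0.37, adjusted p = 0.000142), and their relative Ces2g rose, from 44, 43.4, 43.5, 32.9 and 26.1 CPM in chow and 48.4, 60.5 and 71.6 CPM on CDAHFD (0.66 ± 0.15, adjusted p = 0.00134). All 3 separated the groups. Among 27 Slc10, Slc22 and Slco carriers 9 fell and 4 rose (median -0.11, and 0.13 by raw totals). The neighbouring organic anion carrier genes moved apart: Slc22a26 was at 108, 139.6, 230.2, 151 and 126 CPM in chow and 40, 43.5 and 65.3 CPM on CDAHFD (-1.7 ± 0.25, adjusted p = 1.68e-05) and Slc22a30 at -1.05 ± 0.18, but Slc22a27 rose, from 32.9, 22.3, 24.3, 33 and 21.4 CPM in chow and 41.4, 53.8 and 64.9 CPM on CDAHFD (0.99 ± 0.15, adjusted p = 2.11e-05), as did Slc22a29 (2.24 ± 0.37). These Slc22a genes are close copies, so reads may be shared between them.

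Acute phase genes rose in 10 of 28 members and fell in 2 (median 0.24). Saa1, a serum amyloid gene with near-identical copies, was at 11.3, 19.7, 23.7, 13.1 and 7.76 CPM in chow and 87.1, 139 and 352 CPM on CDAHFD (3.42 ± 0.43, adjusted p = 3.68e-06), and CDAHFD 3 was far above the other livers. Saa3, the form made by macrophages and other cells, rose by 2.67 ± 0.34. Serpina3k, a gene of the serpin family, fell, as did Itih3. Itih3 was at 809.6, 1183, 1080, 1243 and 1130 CPM in chow and 465, 634 and 726 CPM on CDAHFD (-0.8 ± 0.16, adjusted p = 0.000463). Of 30 complement genes 6 rose and 5 fell (median 0.02). Of the 6 rises 5 were the C1q chains, which macrophages make, and the receptors for C3a and C5a, which myeloid cells bear. C1qb, of the recognition complex, was at 37.4, 29.9, 34.6, 50 and 29.5 CPM in chow and 66.8, 82.4 and 106 CPM on CDAHFD (1.17 ± 0.14, adjusted p = 2.19e-06) and the receptor gene C5ar1 at 0.875, 0.3897, 0.695, 1.16 and 1.32 CPM in chow and 2.57, 6.56 and 8.78 CPM on CDAHFD (2.76 ± 0.37, adjusted p = 5.09e-06). C8g and Mbl2, a subunit of the membrane attack complex and a lectin made by hepatocytes, were at -0.7 ± 0.1 and -0.52 ± 0.1, lower in every CDAHFD liver. The falls numbered 3 without chow 3 or CDAHFD 2 and 13 with the mitochondrial share as a term.

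Of 31 clotting and fibrinolysis genes 6 rose and 7 fell (median 0.03), with 4 and 2 in the 5-digit series, and 6 and 15 with the mitochondrial share as a term (median -0.28). Klkb1, plasma prekallikrein, was at 532, 504, 491, 500.4 and 575 CPM in chow and 281, 312 and 365 CPM on CDAHFD (-0.71 ± 0.09, adjusted p = 3.87e-06). Serpinc1, antithrombin, was at 2610, 2837, 3042, 2422 and 2414 CPM in chow and 1738, 1924 and 2304 CPM on CDAHFD (-0.42 ± 0.11, adjusted p = 0.00473). The urokinase receptor gene Plaur was at 0.368, 0.585, 0.427, 0.704 and 0.475 CPM in chow and 2.08, 2.69 and 4.95 CPM on CDAHFD (2.65 ± 0.39, adjusted p = 1.45e-05). Plat, which encodes tissue plasminogen activator, was at 1.33, 0.828, 0.695, 1.31 and 0.686 CPM in chow and 2.19, 3.14 and 6.93 CPM on CDAHFD (2.04 ± 0.3, adjusted p = 1.8e-05). Every CDAHFD liver lay above every chow liver for both.

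Iron and metal genes rose in 9 of 35 members and fell in 4 (median 0.16). Hmox1, which breaks down heme, was at 15.5, 11.6, 14.5, 14.6 and 11.2 CPM in chow and 34.8, 40.5 and 60.6 CPM on CDAHFD (1.68 ± 0.17, adjusted p = 2.15e-07), and Slc11a1, an iron exporter of phagosomes, rose by 1.2 ± 0.19. Slc30a10, a manganese exporter, was at 56.9, 104, 68.7, 114 and 88.8 CPM in chow and 11.5, 24.2 and 27.6 CPM on CDAHFD (-2.0 ± 0.35, adjusted p = 0.000147), Tfr2, a sensor of iron-loaded transferrin, at 437, 472, 553, 408 and 453 CPM in chow and 243, 285 and 369 CPM on CDAHFD (-0.68 ± 0.13, adjusted p = 0.000384). Hamp2, 1 of the paired hepcidin genes, was at 374, 180.3, 122, 264 and 248 CPM in chow and 32.5, 72.7 and 119.5 CPM on CDAHFD (-1.6 ± 0.41, adjusted p = 0.00539). Every CDAHFD liver was below every chow liver for these 3. The summed level of 6 erythroid markers was lower on the diet, at 97.5 to 187 CPM against 193 to 313 CPM. Of 5 tested members 4, all globin genes, were called lower. The other, Alas2, was called higher (log2 fold change 0.48, edgeR adjusted p = 0.0425).

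Among 36 hepatocyte transcription factors and nuclear receptors 7 fell and 1 rose (median -0.14, and 0.09 by raw totals). Pparg, the fat cell regulator, was at 8.7, 3.51, 7.21, 4.52 and 4.22 CPM in chow and 12.6, 16.7 and 22.2 CPM on CDAHFD (1.58 ± 0.24, adjusted p = 2.35e-05), without overlap. Nr0b2, a corepressor induced by bile acids, was at 46.3, 73.7, 79, 45.5 and 71.7 CPM in chow and 19.4, 32.2 and 47.1 CPM on CDAHFD (-0.96 ± 0.26, adjusted p = 0.00647), and 5 of 6 CDAHFD livers were below every chow liver. Foxa3, a pioneer factor, was at -0.68 ± 0.17, and the falls numbered 4 without chow 4. Perivenous genes were called lower in 5 of 27 and higher in 3 (median -0.19, and 0.04 by raw totals). Rgn, a calcium-binding lactonase, was at 1630, 1329, 1573, 1163 and 1267 CPM in chow and 647, 810 and 1050 CPM on CDAHFD (-0.77 ± 0.14, adjusted p = 0.000231) and Tbx3, a target of Wnt signalling, at -1.03 ± 0.2, while the chemotactic factor gene Lect2 rose, from 158, 159, 136, 147 and 164 CPM in chow and 178, 197 and 209.9 CPM on CDAHFD (0.35 ± 0.1, adjusted p = 0.00683). The falls numbered 3 without CDAHFD 2 or CDAHFD 5. In the clock list Clock fell, from 34.6, 48, 37.8, 45.3 and 42.7 CPM in chow and 19.3, 25.3 and 31 CPM on CDAHFD (-0.71 ± 0.15, adjusted p = 0.00083), and Arntl, its partner, was at 4.56, 15.6, 12.8, 17.9 and 14.6 CPM in chow and 2.77, 4.26 and 6.12 CPM on CDAHFD (-1.63 ± 0.52, adjusted p = 0.0206), overlapping through chow 1 at 4.56 CPM. Of the 20 clock genes 4 fell and 1 rose, 2 fell without chow 4, and 5 rose without chow 1. Arntl was lost without chow 4 (adjusted p = 0.0522). The times of day of sampling are not given in the labels.

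Among genes of the basic machinery smaller shares were called than the 27.1% of all genes, and smaller shares were called higher than the 14.8% of all genes. The share called lower in the main fit was above the 12.2% of all genes for the respiratory chain, ATP synthase, mitochondrial ribosomal proteins and proteasome. For translation factors it was below. Of 63 nuclear-encoded respiratory chain genes 12 fell and 0 rose (median -0.17, and 0.06 by raw totals). Ndufb11, of complex I, was at 159.7, 148, 142, 144 and 136 CPM in chow and 96.9, 115 and 124 CPM on CDAHFD (-0.38 ± 0.09, adjusted p = 0.00192), lower in every CDAHFD liver. The falls numbered 6 without chow 5 or CDAHFD 3, 7 without chow 1 or chow 4, and 0 in the 5-digit series. Of 78 mitochondrial ribosomal proteins 11 fell and 4 rose, with Mrpl18 at -0.6 ± 0.12 and Mrpl23 at 0.73 ± 0.15 (list median -0.07, and 0.16 by raw totals). Of 38 proteasome subunits 5 fell and 3 rose (median -0.02, and 0.21 by raw totals), and 2 of the rises were Psmb8 and Psmb9, the inducible subunits of the immunoproteasome. Psmb8 rose by 0.34 ± 0.1. Psmb9 was at 0.34 ± 0.12, adjusted p = 0.0393, and its call was lost in 8 of 11 leave-outs (adjusted p up to 0.126, without chow 3), in the 11 wildtype libraries alone (0.1) and in the 5-digit series (0.13). Of 67 translation factors 8 rose and 4 fell (median 0.05), against 31 and 0 by raw totals (median 0.28) and 9 and 10 with the mitochondrial share as a term. The rises numbered 5 without chow 2, chow 5 or CDAHFD 3, and the falls 1 without CDAHFD 3. Of 17 nuclear-encoded ATP synthase subunits 1 rose and 3 fell (median -0.17, and 0.06 by raw totals), and none was called in the 5-digit series. The rises numbered 0 in 7 of 11 leave-outs, and the falls 0 without CDAHFD 3 and 1 without chow 1, chow 2, CDAHFD 1 or CDAHFD 2.

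Among 18 genes often used as references for quantitative PCR 3 rose and 1 fell. The share of rises, 16.7%, lay near the 14.8% of all genes, and that of falls was 5.56% against 12.2%. By raw totals 7 rose and 0 fell, in the 5-digit series 1 and 0, and with the mitochondrial share as a term 2 and 5. Actb, which encodes beta actin, was at 649.6, 809.6, 729.8, 813 and 767 CPM in chow and 910.4, 1040 and 1236 CPM on CDAHFD (0.49 ± 0.13, adjusted p = 0.00543), with no overlap, and Gusb, a lysosomal glucuronidase, at 14.1, 14.7, 18, 11.3 and 13.3 CPM in chow and 16.8, 22.6 and 41.2 CPM on CDAHFD (0.82 ± 0.19, adjusted p = 0.00193). Tbp, the TATA-binding protein gene, was at 18.8, 20.1, 18.2, 22.6 and 22.6 CPM in chow and 13.3, 16 and 18.9 CPM on CDAHFD (-0.36 ± 0.09, adjusted p = 0.00403), with 5 of 6 CDAHFD livers below every chow liver, and Ywhaz rose by 0.28 ± 0.09, a call lost without chow 4 (adjusted p = 0.064), chow 5 (0.0807) or CDAHFD 3 (0.0818). The Tbp call was lost by raw totals and in the 5-digit series, and the Actb call in the 5-digit series. The other 14 were not called in the main fit, which does not show that they were equal. Among them Rpl13a was at 733, 755, 744, 760.4 and 709.7 CPM in chow and 649.9, 735 and 832 CPM on CDAHFD (0.00 ± 0.09, adjusted p = 0.98), Ppia at 481, 522, 459, 469 and 442 CPM in chow and 427, 475 and 529 CPM on CDAHFD (0.00 ± 0.09, adjusted p = 0.982), Hprt at 49.2, 49, 47.1, 46 and 46.2 CPM in chow and 44.8, 49.9 and 51.6 CPM on CDAHFD (0.04 ± 0.07, adjusted p = 0.707) and Gapdh at 1576, 1562, 1389, 1488 and 1550 CPM in chow and 1244, 1475 and 1627 CPM on CDAHFD (-0.04 ± 0.1, adjusted p = 0.786). These estimates are relative to the TMM scale, and on raw totals the median of all genes lies 0.23 higher and Hprt was called higher.

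Families beyond the lists were formed from gene symbols that share the letters before their number, with Slc and Cyp genes split by subfamily. There were 265 families with 8 or more tested members, and 13 of them held no called gene. The families with the highest shares of rises were Ifi (13 of 15), Cxcl (7 of 9), Tlr (9 of 12), Ms4a (8 of 11), Ccl (9 of 14) and Tnfaip (5 of 8). Ifi27l2b, an interferon-induced gene, was at 9.48, 11, 5.24, 10.1 and 7.18 CPM in chow and 55.9, 75.6 and 96.2 CPM on CDAHFD (3.1 ± 0.24, adjusted p = 2.75e-09), with all CDAHFD livers far above all chow livers. Cxcl16, a scavenger chemokine of macrophages, was at 7.503, 7.26, 8.18, 8.69 and 6.92 CPM in chow and 12.6, 16.3 and 28.7 CPM on CDAHFD (1.24 ± 0.17, adjusted p = 5.68e-06). Ms4a6d and Ms4a7, membrane proteins of macrophages, rose by 1.74 ± 0.24 and 1.97 ± 0.37, and the antiapoptotic Tnfaip8 by 1.02 ± 0.2. In the Cxcl and Ccl families 1 of 9 and 2 of 14 were called lower, shares of 11.1% and 14.3% near the 12.2% of all genes.

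The families with the highest shares of falls were Mup (17 of 19), Cyp2c (10 of 13), Kmt (6 of 8), the mitochondrial genome (9 of 13), Cyp3a (5 of 8) and Exosc (5 of 9). Cyp2c54 was at 317, 484, 518, 255 and 298 CPM in chow and 35.4, 73.1 and 122 CPM on CDAHFD (-2.32 ± 0.36, adjusted p = 3.75e-05) and Cyp3a59 at 70.8, 68.8, 50.5, 35.9 and 49.4 CPM in chow and 12.7, 15.7 and 22.3 CPM on CDAHFD (-1.72 ± 0.24, adjusted p = 1.3e-05), both in families of near-identical genes. The Kmt genes encode histone lysine methyltransferases. Kmt5c was at 36.9, 47.9, 35.6, 45.1 and 44.7 CPM in chow and 21.6, 27.8 and 34.1 CPM on CDAHFD (-0.6 ± 0.12, adjusted p = 0.000408) and Kmt2a at 49.4, 49.8, 46.4, 60.6 and 61 CPM in chow and 27.1, 39 and 46.2 CPM on CDAHFD (-0.48 ± 0.13, adjusted p = 0.00748), both without overlap. The Kmt2a call was lost by raw totals and with the mitochondrial share as a term of the fit. That of Kmt2b (-0.43) was lost in the same fits and in the 5-digit series. Exosc genes encode the RNA exosome, and their falls were small: Exosc10 was at -0.29 ± 0.08, and Exosc7, at -0.23 ± 0.07, stood at 0.0 by raw totals. Mitochondrial transcripts overlapped between groups, as in mt-Atp6, at 8115, 4553, 5148, 9464 and 8126 CPM in chow and 2899, 3595 and 4901 CPM on CDAHFD (-0.9 ± 0.23, adjusted p = 0.0047). The zinc finger family Zfp was the largest, with 56 of 353 members lower (15.9%) and 12 higher (3.4%). Over all genes 12.2% were called lower and 14.8% higher.

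**Figure D5:**
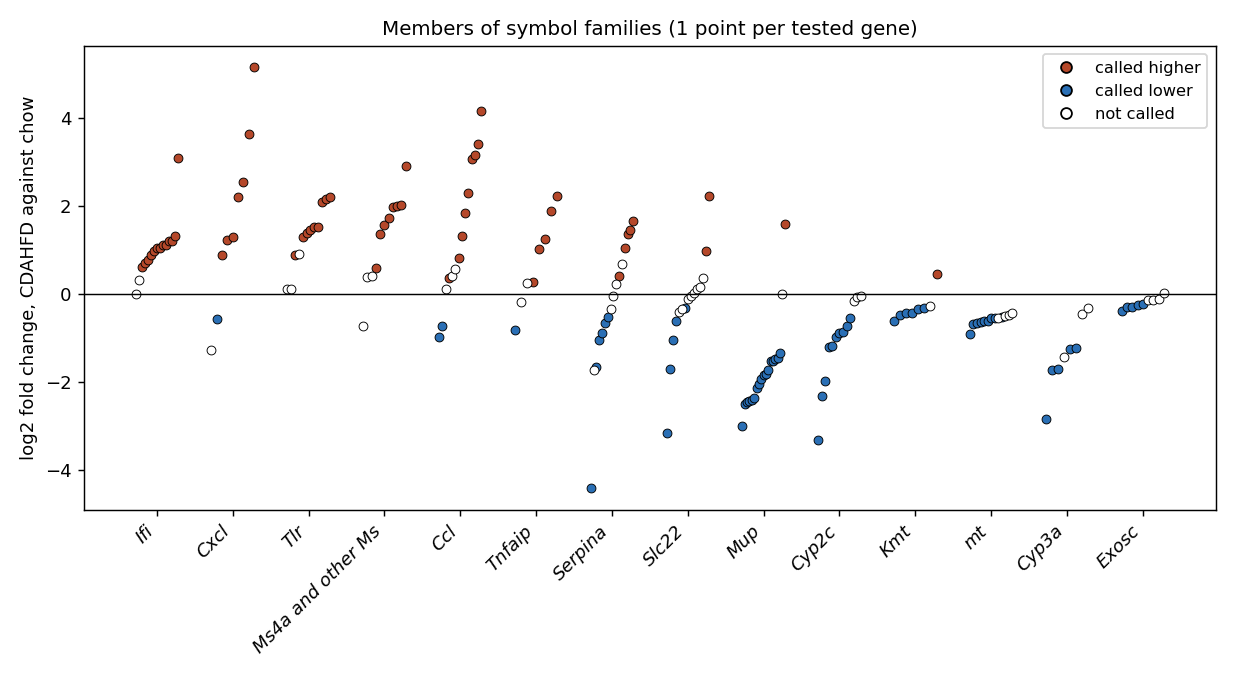
Log2 fold change of every tested protein-coding member of 14 symbol families in wildtype liver on CDAHFD against chow, filled where called higher (red) or lower (blue) and open where not called. Mup20 at 1.6 stands above the other Mup genes, and Serpina and Slc22 hold members called in both directions.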

How the data were processed

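Total RNA of mouse liver was purified on RNeasy columns and made into libraries with the NEBNext Ultra II kit, per the labels' protocols. The authors deposited 1 table of estimated counts per gene for 26 libraries, with no normalization. The submitters' processing notes name cutadapt 3.5, Salmon 1.4.0 and the GRCm39 (mm39) genome. The strand setting and how transcripts were summed to genes are not given in the sources used here. Antisense and overlapping genes therefore cannot be told apart.

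Of 55642 gene IDs 51475 (92.5%) matched a symbol, and 54.4% of values above 0 were whole. Counts were rounded and fitted in edgeR 4.0.16 (R 4.3.3) over 4 groups, with TMM scaling, filterByExpr and a robust quasi-likelihood test of wildtype CDAHFD against wildtype chow, which left 17104 genes. Calls are Benjamini-Hochberg adjusted p-values under 0.05 over those genes. The standard error is the log2 fold change divided by the square root of F. Groups come from the labels. Composition values were taken on unscaled library totals and had two-sided exact permutation tests (scipy 1.17.1). The scripts were tested on simulated data. Within groups libraries differed beyond sampling noise, so none was counted as a duplicate. Depth limits precision for genes near 1 CPM.

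Named genes were the 12 largest rises and falls at a mean of 1 CPM or more in the higher group, the 3 called genes of lowest p per list, direction and named family, the 10 largest differences of mean CPM per direction, reference genes, markers and Mtarc1. Genes picked later, with values known, are marked so. The text describes part of the genes these rules give, and 3 of them are not reported here. The members, lists and tests were chosen with earlier results of these data known. Alternatives were DESeq2 1.42.0, limma 3.58.1 (voom), other scalings and filters, other sets of samples, added terms, a test against 1.5-fold and leaving out each library. Promoter windows (250 bases before to 50 after each start) come from RefSeq on GRCm38.p6, a different build from that of the counts, and were matched by symbol. Lists with windows for under 80% of members were not searched. The genes tested had windows for 69.4%, so all windows of RefSeq, tested or not, were set beside the lists.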

Additional observations from a re-analysis of the deposited data

Results flagged for a closer look

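Each named gene was searched, within the 5 chow and within the 6 CDAHFD livers, for a library far from the rest of its group by Dixon's ratio at the 95% level. Of 450 groups of values (225 genes in 2 groups) 29 held such a library, 6.44%, where chance flags about 1 in 20. CDAHFD 3 accounted for 9 of the 29, and chow 1 and chow 3 for 5 each.

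In CDAHFD 3 the highest values were those of Saa1 (352.1 CPM, next library 156.6), Ctss (124.4, next 70.68), Lgmn (138.2, next 99.02), Atp6v1b2 (73.56, next 54.0), Abcg1 (20.8, next 15.49), Rrm2 (13.3, next 9.909), Gm3776 (39.1, next 18.03) and Scd1 (310.5, next 166.2), and the lowest that of Pcyt2 (463.5, next 601.3). In 7 of these 9 genes, all but Pcyt2 and Scd1, the library was the highest of the 11 livers.

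In chow 1 the highest chow values were those of Gsta1 (1.979 CPM, next library 0.6413), Gm3776 (1.243, next 0.5809), Pmaip1 (1.611, next 0.7537), Gys2 (158.8, next 96.84) and Apoa5 (1456, next 1178). All 5 are genes called higher on CDAHFD, and chow 1 is the only chow liver of the 4-digit series. In chow 3 they were Hacl1 (469.8, next 277.5), Pkp2 (53.44, next 44.72), Arpc1b (62.1, next 55.1), Slc22a28 (5.825, next 1.949) and Sprr1a (0.3207, next 0.1005), and in chow 4 Axl (30.5, next 21.73) and Gm21188 (0.402, next 0.05344).

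ENSMUSG00000119584, a gene ID without a symbol, reached 18510 CPM in CDAHFD 2 against 5363 CPM in the next library of its group. Psmb9 was lowest in CDAHFD 1 (27.85 CPM, next 33.42), and Mup22 (2581, next 5664) and Mup3 (922.3, next 1472) in CDAHFD 4. Angptl8 was highest in CDAHFD 5 (50.21, next 22.09), and Prlr (302.6, next 224.2), Ptgds (11.11, next 6.278) and Slc22a26 (65.32, next 46.63) in CDAHFD 6. The causes of these values were not tested.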

How the results depend on the processing

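With raw library totals in place of TMM scaling, 5368 genes were called higher, 704 lower and 222 at least 2-fold lower. With only the 5-digit number series 2264 genes were called, 1312 higher, 952 lower and 607 at least 2-fold higher. Against a change of 1.5-fold 907 were called, 702 higher, 205 lower and 196 at least 2-fold lower, as that test asks for more. Counts under the other settings stayed within 1.5 times the main ones: 4945 genes with DESeq2, 4504 with voom, 4633 with RLE size factors, 3793 without a filter on low counts, 4340 at a mean of 1 CPM or more, 4031 in the 11 wildtype libraries, 4265 with the number series as a term and 5402 with the mitochondrial share as a term, which kept 3575 of the main calls. Leaving out 1 library at a time gave 3769 to 4639 called genes, 2129 to 2529 higher, 1637 to 2110 lower, 875 to 1070 at least 2-fold higher and 327 to 404 at least 2-fold lower. The composition differences (CDAHFD minus chow) then ran from 382 to 545 genes at 1 CPM or more, from -6.16 to -5.16 percentage points for the 100 most abundant genes and from -4.16 to -2.26 for the mitochondrial share. At 0.5 CPM the difference in genes was 368 (exact permutation p = 0.0519).

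The sample numbers did not pair the libraries: deviations of same-numbered samples correlated at 0.04, -0.07, 0.32, -0.2 and 0.18. With the replicate block 4464 genes were called. Of the 281 genes followed, 32 lost their call in at least 1 leave-out and 2 gained one (Marc1 without CDAHFD 4, adjusted p = 0.049, and Rplp0 without chow 3, 0.013). Under the other settings 143 lost it in at least 1 and 5 gained one, Marc1 among them. Signs turned for Exosc7 by raw totals (0.0) and, with the mitochondrial share as a term, for Sdha (-0.38), Pgk1 (-0.23) and Eef2 (-0.23), and the cause was not tested.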
